A study of Mus musculus with 6 samples.

Results

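The 10 genes described here are Atf3, Atf4, Atf5, Ddit3, Trib3, Cebpb, Chac1, Ddit4, Sesn2 and Nupr1, the transcription factors and regulators of the ATF4 stress response. They were chosen by symbol among the 18193 genes that the platform annotation names on the array, and 17 probe sets carried their symbols. The choice was made with earlier results of these data known, so the shares of all genes set beside their counts are a description. The cells were A20, a line grown from a B lymphoma of a BALB/c mouse, and their messenger RNA was read on 6 Affymetrix Mouse Genome 430 2.0 arrays, 1 for each condition. The arrays with drug held cells kept with SP600125 alone for 24 h, cells given TGF-β and SP600125 together for 12 h, and cells given both for 24 h. The arrays without drug held cells given TGF-β for 12 h, cells given TGF-β for 24 h, and untreated cells, all with DMSO according to their titles. SP600125 is an ATP-competitive inhibitor of the JNK kinases, and the study asked which TGF-β responses depend on them. No condition was repeated and the line is a single tumour line. The p-values below therefore set a fitted effect against an error drawn from departures of these 6 arrays from the fitted model. They do not set it against a spread between repeats.

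ATF4 is the main transcription factor of the integrated stress response. When kinases such as PERK or GCN2 phosphorylate the initiation factor eIF2α, general protein synthesis slows while translation of Atf4 messenger RNA increases, and ATF4 then turns on genes for amino acid supply, redox balance and, under lasting stress, cell death. ATF4, ATF5, ATF3, CHOP (encoded by Ddit3) and C/EBPβ (Cebpb) are basic leucine zipper proteins that bind DNA as pairs, often on composite C/EBP-ATF elements. TRIB3 restrains ATF4 and CHOP, CHAC1 breaks down glutathione, DDIT4 and SESN2 restrain the growth kinase mTORC1, and NUPR1 is a small stress-induced chromatin protein.

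The deposited values are linear signals, 1 for each probe set and array, and log2 was taken after raising any signal below the overall median, 74.2, to that value, called the floor here. The 6 B cell markers found (among them Cd79a, Ms4a1 and Pax5) were above the floor on every array. Of 5 T and NK cell markers found 0 to 2 were above it on an array, and of 6 myeloid markers 2 to 3. For fibroblast markers the count was 0 to 3 of 5, and for erythroid and platelet markers 0 to 1 of 2. The summed signal of the B cell markers was 34905.2 to 36807.6 on the arrays with drug, against 50303.7 to 60043.9 without drug, and whether fewer cells of a type or less RNA per cell lay behind this cannot be told apart in bulk RNA. The array of TGF-β and SP600125 at 24 h stood apart, with a signal of 3288.9 for the middle 18S ribosomal RNA control probe set against 270.9 to 659.3 on the other 5, and an actin 3′/5′ ratio of 1.89 against 1.25 to 1.51. At each TGF-β time both values were higher with drug than without. The 18S signals were 343.7 against 270.9 at 0 h, 659.3 against 521.4 at 12 h and 3288.9 against 583.9 at 24 h. The actin ratios were 1.51 against 1.25, 1.32 against 1.29 and 1.89 against 1.25. The part of these shifts in the results below was not tested.

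The promoters of the 10 genes were searched for known stress elements, in windows reaching 250 bases upstream and 50 downstream of each start in RefSeq (GRCm38.p6). All 10 had a window, and Atf5 had 2. The C/EBP-ATF element TGATGCAA, read on either strand, lay in 3 of these 11 windows, against 0.895% of 32851 windows of all genes. It stood 193 bases upstream of the start of Chac1 (chr2:119350992-119351241, plus strand), 110 bases upstream in Atf3 (chr1:191183334-191183583, minus strand) and 110 bases upstream in Nupr1 (chr7:126625471-126625720, minus strand). These 3 upstream stretches are shown because they hold the same letters: in the results below Chac1 rose with the drug, Atf3 missed the threshold and Nupr1 stayed under the floor. Each is written along its gene, with the element in capitals as its reverse complement.
Chac1: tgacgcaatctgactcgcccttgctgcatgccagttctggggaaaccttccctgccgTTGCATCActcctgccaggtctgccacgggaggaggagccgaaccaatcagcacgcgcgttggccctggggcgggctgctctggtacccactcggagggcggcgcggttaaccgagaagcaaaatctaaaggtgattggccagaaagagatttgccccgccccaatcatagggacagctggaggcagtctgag
Atf3: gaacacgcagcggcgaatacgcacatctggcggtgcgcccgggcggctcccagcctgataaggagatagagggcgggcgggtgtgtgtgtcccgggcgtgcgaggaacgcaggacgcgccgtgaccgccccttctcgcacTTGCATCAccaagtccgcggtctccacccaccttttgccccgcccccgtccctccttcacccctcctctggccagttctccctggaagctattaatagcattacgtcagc
Nupr1: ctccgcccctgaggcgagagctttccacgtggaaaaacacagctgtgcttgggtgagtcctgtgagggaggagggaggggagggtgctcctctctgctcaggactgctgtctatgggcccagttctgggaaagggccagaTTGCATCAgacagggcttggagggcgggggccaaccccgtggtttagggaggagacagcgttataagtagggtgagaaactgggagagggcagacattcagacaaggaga
With 1 base free, TGATGNAA, the Trib3 window also held a match, TTACATCA on the strand of the gene, 14 bases downstream of its start, and 3.97% of all windows held one. The cAMP response element TGACGTCA and the ER stress element of ATF6 and XBP1, each searched on both strands, lay in 0 of the 11 windows, against 1.79% and 0.119% of all windows. The core of the cAMP response element, TGACGT, lay in 1 of the 11, against 7.51% of all windows. That was the Atf3 window, with ACGTCA on the strand of the gene 8 bases upstream of its start. A match is a run of letters and not a measured binding site.

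SP600125 raised 8 of the 10 genes. In an additive limma model over all 6 arrays, with TGF-β state and drug as terms, Atf4, Atf5, Ddit3, Cebpb, Trib3, Chac1, Ddit4 and Sesn2 rose at a Benjamini-Hochberg adjusted p under 0.05, and 0 fell. Among all 11730 genes in the fit, 6.36% were called, 3.31% rose and 3.05% fell. Of the other 2 genes, Atf3 entered the fit only through its arrays with drug and was not called, and Nupr1 was under the floor on every array. The median effect over the 9 genes in the fit was a log2 of 2.08, against 0.042 over all genes, and Atf3 is held at the floor in it. Leaving out any 1 array left at most 1 of the 10 called. Without the array of TGF-β and SP600125 at 24 h, limma called 0 of the 10 genes and 0 of all genes at an adjusted p under 0.05, with 8 and 1896 at an unadjusted p under 0.05, while the effects were 1.55 for Atf4, 3.48 for Trib3 and 2.26 for Sesn2.

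The 3 pairs of arrays with and without drug share no array, and each can be read by the 2-fold rule of the study design. With drug, 8 of the 10 genes were at least 2-fold higher at 0 h of TGF-β, 7 at 12 h and 8 at 24 h, where 3.26%, 1.83% and 3.19% of all genes were. In the same pairs 0 of the 10 were 2-fold lower, against 1.34%, 1.17% and 1.95% of all genes. The 7 genes Atf4, Atf5, Ddit3, Cebpb, Trib3, Chac1 and Sesn2 were at least 2-fold higher in all 3 pairs, as were 0.406% of all genes. For 8 of the 10 genes every array with drug was above every array without it. With floored signals this held for 9.11% of the 13059 genes that were above the floor on any array. The exceptions among the 10 were Ddit4 and Nupr1. Atf3 is 1 of the 8 and was above the floor only on its arrays with drug. Since each condition has 1 array, the order of conditions within the drug arrays, or within the others, cannot be set against a replicate spread.

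**Figure D1:**
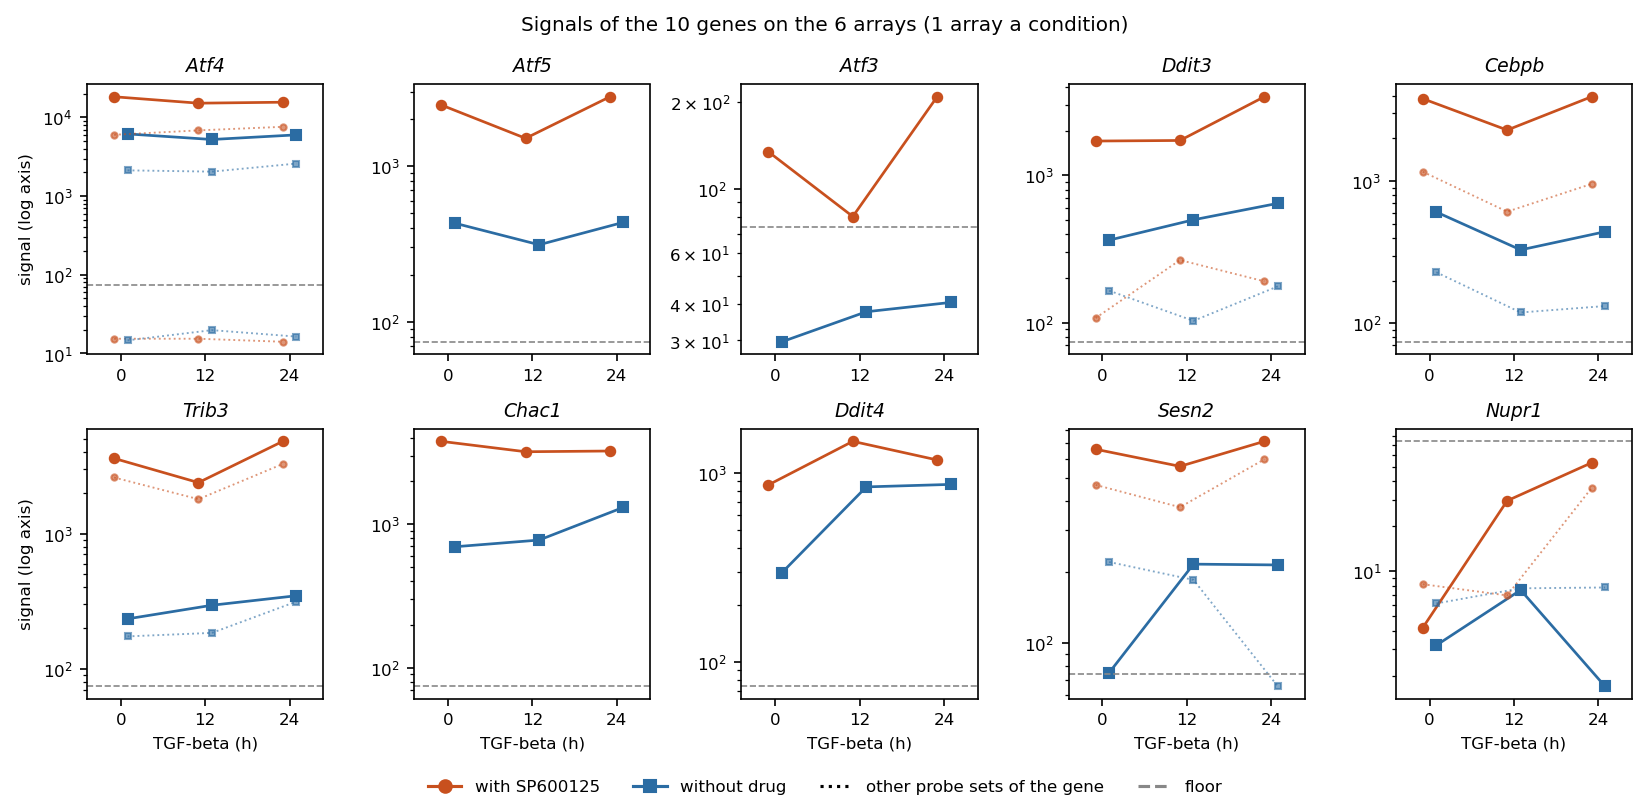
Signal (log axis) of the 10 genes against hours of TGF-β, with SP600125 (circles) and without drug (squares). Solid lines join the brightest probe set of a gene, dotted lines its other probe sets, and the dashed line is the floor of 74.2. The circles of Atf4, Atf5, Ddit3, Cebpb, Trib3, Chac1 and Sesn2 all lie above their squares on the solid lines, and Nupr1 lies under the floor throughout.

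The leucine zipper factors begin with Atf4 itself. Its signals with drug were 18321.0 at 0 h of TGF-β, 15179.3 at 12 h and 15616.4 at 24 h, against 6172.8, 5245.1 and 6003.7 without drug at the same times. The drug arrays formed a tight upper band and the others a tight lower band, with TGF-β moving either band little. The ratios with over without drug were 2.97, 2.89 and 2.60, and Atf4 rose by a log2 of 1.49 ± 0.0806 (standard error, limma adjusted p = 0.000133). The messenger RNA level says nothing of the translation by which ATF4 protein is mainly controlled.

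Atf5, a close relative of Atf4 that is also translated under stress, had signals of 2470.9, 1508.5 and 2791.6 with drug at 0 h, 12 h and 24 h, against 429.4, 312.0 and 435.0 without. It was thus lowest at 12 h in both arms, and its groups did not overlap. The gene rose by 2.49 ± 0.13 (limma adjusted p = 0.000133), with 5.75-fold, 4.83-fold and 6.42-fold higher signals in the 3 pairs.

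Cebpb, a factor that pairs with ATF4 on composite elements, showed signals of 3805.0, 2289.8 and 3927.5 with drug, against 606.9, 328.6 and 441.1 without. Here too the 12 h arrays were lowest in each arm, and the ratio was 6.27, 6.97 and 8.90 in the 3 pairs. Cebpb rose by 2.87 ± 0.13 with SP600125 (limma adjusted p = 8.78e-05). Ordered from the largest rise to the largest fall, it held rank 5 of 11730 genes, with rank 1 held by Trib3 and rank 6 by Atf5.

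Ddit3, which encodes the death-promoting factor CHOP, had signals of 1709.2, 1724.2 and 3415.1 with drug, against 363.2, 499.1 and 645.5 without. Signals were highest at 24 h in each arm, and every drug array was above every array without drug. Ddit3 rose by 2.14 ± 0.15 with SP600125 (limma adjusted p = 0.000332) and was 4.71-fold, 3.45-fold and 5.29-fold higher in the pairs.

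Atf3, a stress-induced repressor and activator, was dim. Its signals were 134.5, 80.4 and 208.4 with drug, against 29.7, 37.7 and 40.6 without, so that all 3 drug arrays were above the floor and all 3 others were below it. It was at least 1.81-fold higher with drug at 0 h, at least 1.08-fold at 12 h and at least 2.81-fold at 24 h. In limma the floored effect was 0.82 ± 0.26 (adjusted p = 0.122), and with an offset of 50 in place of the floor it was 1.10 (adjusted p = 0.0398).

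**Figure D2:**
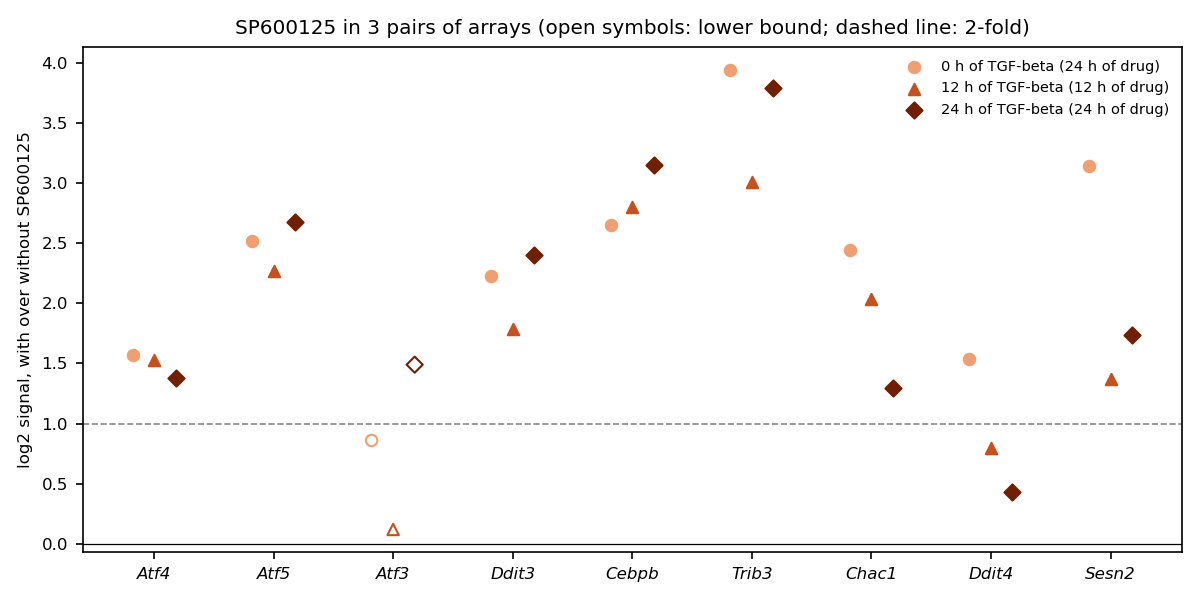
Log2 ratio of the signal with over without SP600125 for 9 genes, by brightest probe set, in the pairs at 0 h (circles), 12 h (triangles) and 24 h (diamonds) of TGF-β. Open symbols are lower bounds, and the dashed line marks 2-fold. Trib3 reaches 3.94, 3.01 and 3.79, while Ddit4 declines from 1.54 at 0 h to 0.43 at 24 h.

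Of the regulators, Trib3, the pseudokinase that ATF4 and CHOP induce and that restrains them in turn, showed the largest rise with drug of all genes in the fit. Its signals with drug were 3593.1, 2379.5 and 4802.3, against 234.0, 295.0 and 346.8 without. The ratios were 15.4, 8.07 and 13.8, and the gene rose by 3.58 ± 0.18 (limma adjusted p = 0.000116). Without the TGF-β array at 12 h it was the only one of the 10 still called, at 3.87 with an adjusted p of 0.0377.

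Nupr1 could not be given a fold. Its brighter probe set had signals of 4.2, 29.7 and 53.3 with drug, against 3.2, 7.5 and 1.7 without, and the other probe set reached 36.1 on the drug array at 24 h and at most 8.2 elsewhere. All 12 values were under the floor of 74.2. The highest value of both probe sets fell on the array with the 18S signal of 3288.9.

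Chac1, the glutathione-degrading enzyme whose promoter is shown above, had signals of 3779.1, 3198.1 and 3235.8 with drug, against 696.4, 775.5 and 1311.1 without. The drug arrays lay close together while the array at 24 h of TGF-β without drug was the highest of its arm. Chac1 rose by 1.93 ± 0.19 with drug (limma adjusted p = 0.00146), with ratios of 5.43, 4.12 and 2.47 in order of time.

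Sesn2, a leucine sensor that holds back mTORC1, had signals of 660.5, 559.2 and 713.4 with drug, against 74.9, 215.7 and 214.0 without. The untreated array was just above the floor and the lowest of the 6. Sesn2 rose by 2.08 ± 0.33 (limma adjusted p = 0.0113), from ratios of 8.82, 2.59 and 3.33.

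Ddit4, which encodes REDD1 and releases the TSC complex against mTORC1, had signals of 862.1, 1464.5 and 1167.4 with drug, against 296.1, 841.0 and 866.9 without. Its groups overlapped, since SP600125 alone gave slightly less signal than TGF-β alone at 24 h. Ddit4 rose by 0.92 ± 0.20 (limma adjusted p = 0.0375), the smallest effect among the 8 called, and it missed the threshold after median scaling at 0.84 with an adjusted p of 0.0586. Without the SP600125-alone array, or without the untreated array, the effect was 0.61. It was at least 2-fold higher only at 0 h, with ratios of 2.91, 1.74 and 1.35.

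Cells in the 12 h pair had 12 h of drug, while those in the other pairs had 24 h. By brightest probe set, the ratio with over without drug was smallest in the 12 h pair for Atf5, Ddit3, Trib3 and Sesn2, and by its bound for Atf3. For Atf4, Chac1 and Ddit4 it was smallest at 24 h, and for Cebpb at 0 h. The dimmer probe sets of Trib3, Cebpb and Sesn2 were smallest in the same pair as the brightest. Probe set 1438992_x_at of Atf4 had ratios of 2.83, 3.34 and 2.93, smallest at 0 h. For 1443897_at of Ddit3 the 12 h ratio, 2.59, was the largest.

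Several genes had more than 1 probe set, and these were compared within each gene. Both Trib3 probe sets gave nearly the same drug effect, 3.58 ± 0.18 for 1456225_x_at and 3.52 ± 0.16 for 1426065_a_at. For Cebpb they gave 2.87 ± 0.13 and 2.52 ± 0.20. Atf4 had 1.49 ± 0.0806 for 1448135_at and 1.60 ± 0.0890 for 1438992_x_at, while its remaining probe set, 1439258_at, stayed between 14.1 and 19.8, under the floor. The first Atf4 probe set was at −0.14 ± 0.0987 at 24 h of TGF-β and the other at 0.31 ± 0.11 (limma adjusted p = 0.432 and 0.105). A probe set ending in x_at can bind transcripts of other genes as well.

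The probe sets of Ddit3 disagreed. Probe set 1443897_at had signals of 107.5, 266.0 and 190.8 with drug, against 164.8, 102.9 and 176.3 without, and its drug effect was 0.29 ± 0.36 (limma adjusted p = 0.705). At 0 h it was 1.53-fold lower with drug, where the brighter probe set was 4.71-fold higher, and at 12 h it was 2.59-fold higher. When both probe sets were averaged, Ddit3 stood at 1.22 (adjusted p = 0.0512).

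Both Sesn2 probe sets rose with drug, with unlike ratios in the single pairs. The dimmer probe set, 1451599_at, had signals of 466.6, 375.6 and 598.6 with drug, against 220.2, 185.0 and 65.6 without, and rose with SP600125 by 1.71 ± 0.38 (limma adjusted p = 0.0398). Its ratios in the 3 pairs were 2.12, 2.03 and at least 8.07, where those of 1425139_at were 8.82, 2.59 and 3.33. Without drug, TGF-β at 24 h left this probe set at least 2.97-fold lower than in untreated cells, while probe set 1425139_at was 2.86-fold higher in the same pair of arrays.

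**Figure D3:**
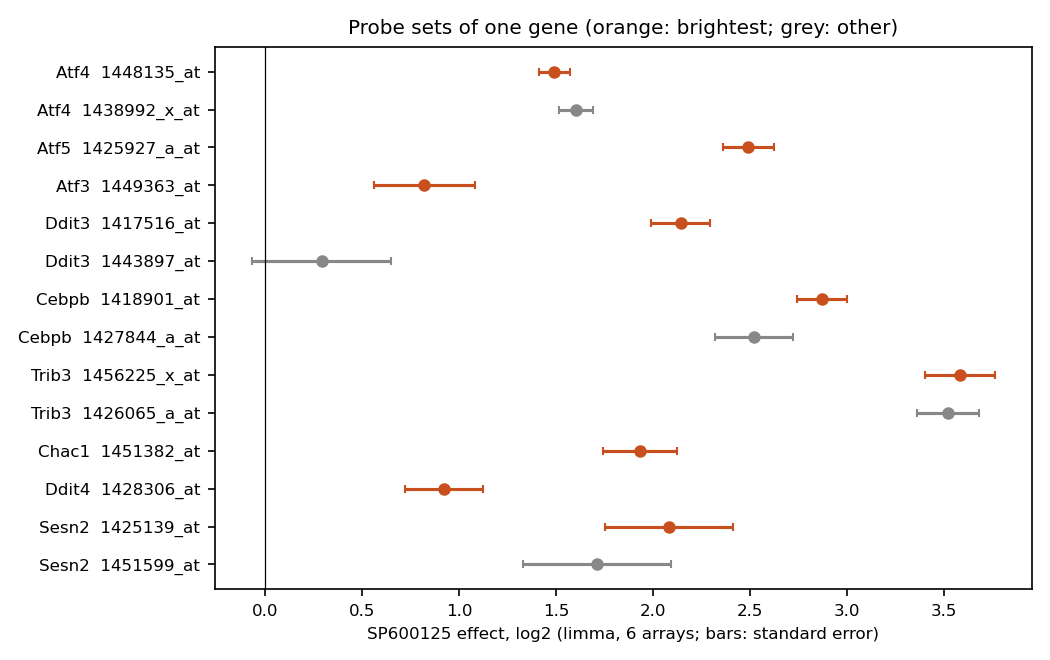
SP600125 effect (log2, limma over 6 arrays, bars are standard errors) for each of the 14 probe sets in the fit. Orange marks the brightest probe set of a gene and grey the others. The pairs of Trib3, Atf4, Cebpb and Sesn2 lie close together, whereas 1443897_at of Ddit3 lies at 0.29 against 2.14 for 1417516_at.

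TGF-β moved few of the 10 genes. Averaged over both drug settings, 1 of the 10 was called at 12 h and 2 at 24 h in limma, where 3.83% and 14.6% of all genes were called (1.99% rose and 1.83% fell at 12 h, 7.84% and 6.79% at 24 h). The count at 24 h is near that background, and leaving out any 1 array left 0 called at either time, with 2 to 5 at 12 h and 1 to 3 at 24 h at an unadjusted p under 0.05. Cebpb fell at 12 h, by 0.81 ± 0.16 on the log2 scale (adjusted p = 0.0382), lower in 2 of 2 pairs, with its other probe set at −0.94 ± 0.25 (adjusted p = 0.0886). The 12 h effect averages in the pair with drug, where cells had 12 h of drug against 24 h for SP600125 alone. In that pair TGF-β and the length of drug exposure cannot be told apart. In the pair without drug Cebpb was 1.85-fold lower. After quantile normalization the value for Cebpb was −0.81 with an adjusted p of 0.0513. At 24 h it was at −0.21 ± 0.16.

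Ddit3 rose at 24 h of TGF-β by 0.91 ± 0.18 (limma adjusted p = 0.0155), higher in 2 of 2 pairs. With drug its signal was 2.00-fold that of SP600125 alone, which before rounding is just under the 2-fold rule, and without drug it was 1.78-fold that of untreated cells. Its other probe set was at 0.46 ± 0.44. Ddit4 rose at 24 h by 0.99 ± 0.25 (limma adjusted p = 0.0373) and stood at 1.14 ± 0.25 at 12 h (adjusted p = 0.0519). After median scaling the 24 h value was 0.86 with an adjusted p of 0.0672. Without the SP600125-alone array the Ddit4 values were 1.60 at 12 h and 1.46 at 24 h, and without the untreated array 0.67 and 0.53, while leaving out the TGF-β array at 24 h gave 0.62 at that time. Atf4 was at −0.25 ± 0.0987 and −0.14 ± 0.0987, and none of Atf3, Atf5, Trib3, Chac1 or Sesn2 passed at either time.

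By the 2-fold rule, only Ddit4 and Sesn2 were TGF-β inducible among the 10, which held for 5.9% of all genes. Read by brightest probe set, 0 of the 10 were 2-fold higher with drug at 12 h (2.51% of all genes) or 24 h (4.6%). Without drug both of these genes were at 12 h (3.38%) and at 24 h (5.64%). The dimmer probe set of Ddit3, 1443897_at, was 2.47-fold higher at 12 h with drug (266.0 against 107.5). By brightest probe set none of the 10 was 2-fold lower in any of these 4 comparisons, where 1.32% and 2% of all genes were with drug and 1.5% and 1.97% without. Ddit4 was 1.70-fold higher at 12 h with drug and 2.84-fold without, and 1.35-fold higher at 24 h with drug and 2.93-fold without. Its increase in signal was 602.4 with drug and 544.9 without drug at 12 h, and 305.3 with drug and 570.8 without drug at 24 h, a 46.5% smaller increase. Sesn2, by its brighter probe set, changed in signal by −101.3 with drug and 140.8 without drug at 12 h, and by 52.9 with drug and 139.1 without drug at 24 h, a 62.0% smaller increase. The array of TGF-β and SP600125 at 12 h had 12 h of drug while SP600125 alone had 24 h, so in every 12 h comparison with drug TGF-β and the length of drug exposure cannot be told apart. The rule of the study, a reduction of more than 75%, was therefore met by Sesn2 at 12 h and not at 24 h, on 1 of its 2 probe sets. Both drug-alone signals were above the signals that TGF-β alone reached at 12 h.

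The dependence of the TGF-β response on drug was tested as an interaction in limma, treating both times as the same stimulated state. It called 0 of the 10 genes and 0 of all genes (0%), with 2 of the 10 and 333 genes, or 2.84%, at an unadjusted p under 0.05. Those 2 were Sesn2 at −1.58 ± 0.42 (unadjusted p = 0.0161, adjusted p = 0.999) and Ddit4 at −0.93 ± 0.32 (unadjusted p = 0.0383, adjusted p = 0.999). The negative sign means a smaller log2 response to TGF-β with drug. The other Sesn2 probe set was at 0.93 ± 0.94.

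**Figure D4:**
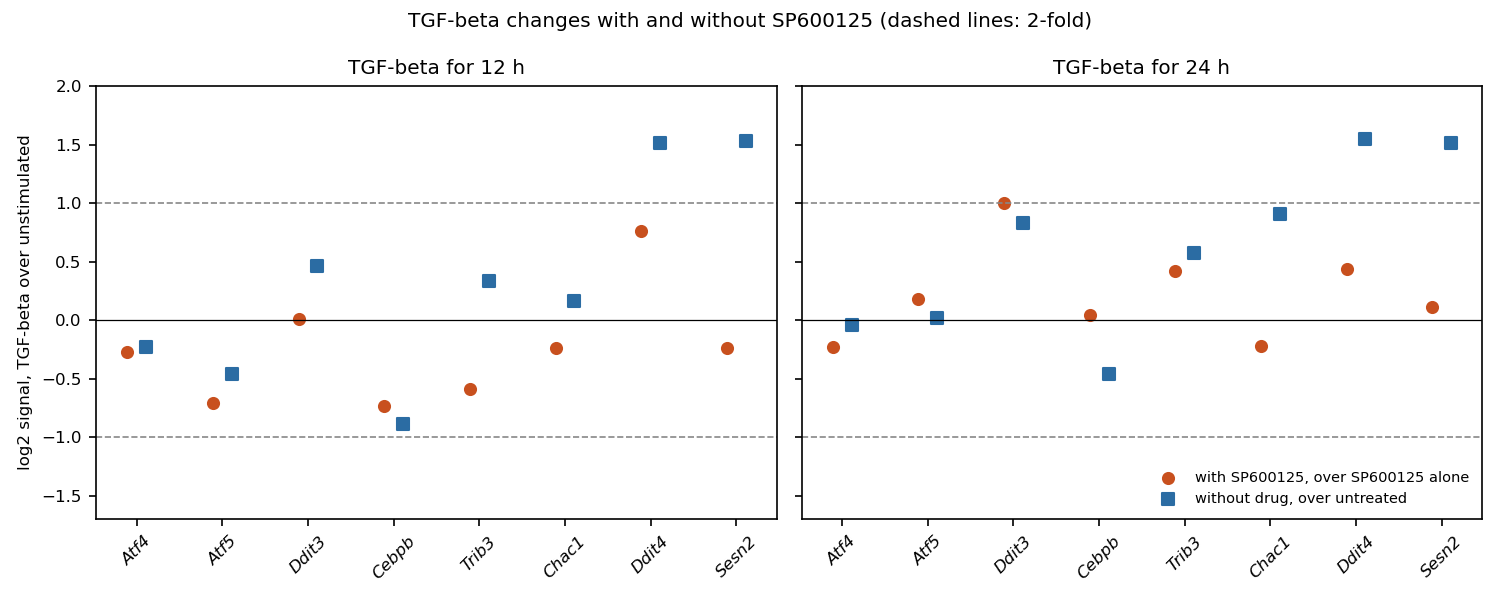
Log2 ratio of the signal with TGF-β over the unstimulated array of the same arm, at 12 h (left) and 24 h (right), with SP600125 (circles) and without drug (squares). Dashed lines mark 2-fold. Ddit4 and Sesn2 without drug lie at 1.51 and 1.53 at 12 h and at 1.55 and 1.51 at 24 h, above the line, and all values of Atf4 lie within 0.27 of 0.

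The genes outside the 10 whose pattern over the 6 arrays was most like that of Atf4 were sought among 2420 genes that were above the floor on all arrays and had a log2 range of at least 1. The closest were Eif4ebp1, a translation repressor, with a Pearson r of 0.9995, Cth, an enzyme of cysteine synthesis, with 0.9988, Nars, the asparaginyl-tRNA synthetase, with 0.9979, Fam207a with 0.9962, and Phf10, a chromatin remodelling subunit, with 0.9959. Within the 10 genes the same measure was 0.986 for Cebpb, 0.982 for Atf5, 0.974 for Trib3, 0.961 for Chac1, 0.907 for Ddit3, 0.863 for Sesn2 and 0.558 for Ddit4. These values rest on 6 arrays that split by drug and are a description. Cth had signals of 13702.9, 8400.7 and 9276.7 with drug, against 1557.8, 1222.8 and 1427.9 without.

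Other genes of the pathway were read from lists, each gene by its brightest probe set. With SP600125 3.31% of all genes rose and 3.05% fell. Of 12 measured ATF4 targets of amino acid synthesis 8 rose with SP600125 and 0 fell, with a median log2 of 1.06, and the largest effects were Cth at 2.87 ± 0.10 and Gpt2, a transaminase, at 2.19 ± 0.16. Among 10 amino acid transporters 8 rose and 0 fell, led by Slc1a4 at 1.94 ± 0.13 and the glycine transporter gene Slc6a9 at 1.80 ± 0.13. Of 19 cytosolic aminoacyl-tRNA synthetases 10 rose and 0 fell, led by Sars at 0.98 ± 0.08 and Nars at 0.97 ± 0.08. Of 12 other ATF4 and CHOP targets 9 rose and 0 fell, with Adm2 at 2.28 ± 0.23 and Vegfa, the endothelial growth factor, at 2.07 ± 0.25. With probe sets averaged per gene the risen genes were 7, 4, 6 and 5 in these lists. Without the array of TGF-β and SP600125 at 24 h, 0 genes of any of these lists were called, and their medians were 1.11, 0.95, 0.51 and 0.77.

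The ER chaperone list went the other way, where 3.05% of all genes fell with drug. Of 19 genes of the ATF6 and XBP1 arms 0 rose and 13 fell with SP600125, with a median of −0.73, and 9 fell when the probe sets of each gene were averaged. Sdf2l1 was at −1.47 ± 0.16 and Creld2, another luminal ER factor, at −1.19 ± 0.14. Sdf2l1 had signals of 1168.6, 1665.9 and 1122.3 with drug, against 4559.4, 3425.2 and 2967.8 without, so every drug array was below the others. Leaving out the drug array at 24 h gave a list median of −0.79 with 0 called.

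Beside the 3.31% of all genes that rose with drug and the 3.05% that fell, a count of 1 in a short list is near the background. Upstream of ATF4, 1 of 9 eIF2α kinases and phosphatase genes rose with drug and 0 fell. The one was Ppp1r15a, which encodes the stress-induced phosphatase subunit GADD34, at 1.81 ± 0.17 (limma adjusted p = 0.00135), with signals of 1458.3, 936.9 and 2559.2 with drug, against 373.0, 367.8 and 597.2 without. Among 8 measured paralogs of the 10 genes 2 rose, Jdp2, an ATF3-like repressor, by 2.41 ± 0.20 and Cebpg, a partner of ATF4, by 1.36 ± 0.10, and 1 fell, Trib2 at −0.63 ± 0.14. Of 17 other leucine zipper genes 3 rose and 0 fell, with Nfe2l1 at 1.32 ± 0.11 and Atf6 at 0.69 ± 0.14. When probe sets were averaged, 1 of these 17 rose, and 2 paralogs rose and 0 fell.

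Lists of p53 targets, hypoxia targets and genes of mTORC1 control were read in the same way, where 3.31% of all genes rose and 3.05% fell. A count of 1 in such a list is near those shares. The lists also share genes with those above. Tnfrsf10b, Bbc3 and Gadd45a of the p53 list are also among the other ATF4 and CHOP targets, and Sesn1 among the paralogs. Vegfa and Ero1a of the hypoxia list and Eif4ebp1 of the mTORC1 list are also among the other ATF4 and CHOP targets. Of 12 p53 targets 4 rose and 0 fell, with Cdkn1a at 1.38 ± 0.27 and Trp53inp1 at 1.35 ± 0.24, and 0 rose when probe sets were averaged. Of 12 hypoxia targets 1 rose, Vegfa, and 2 fell, Ankrd37 at −1.17 ± 0.15 and Ldha at −0.50 ± 0.08, and 1 fell when probe sets were averaged. Of 17 genes of mTORC1 control 1 rose, Eif4ebp1, by 1.60 ± 0.09. None of 8 housekeeping genes was called, and 2 fell after median scaling.

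**Figure D5:**
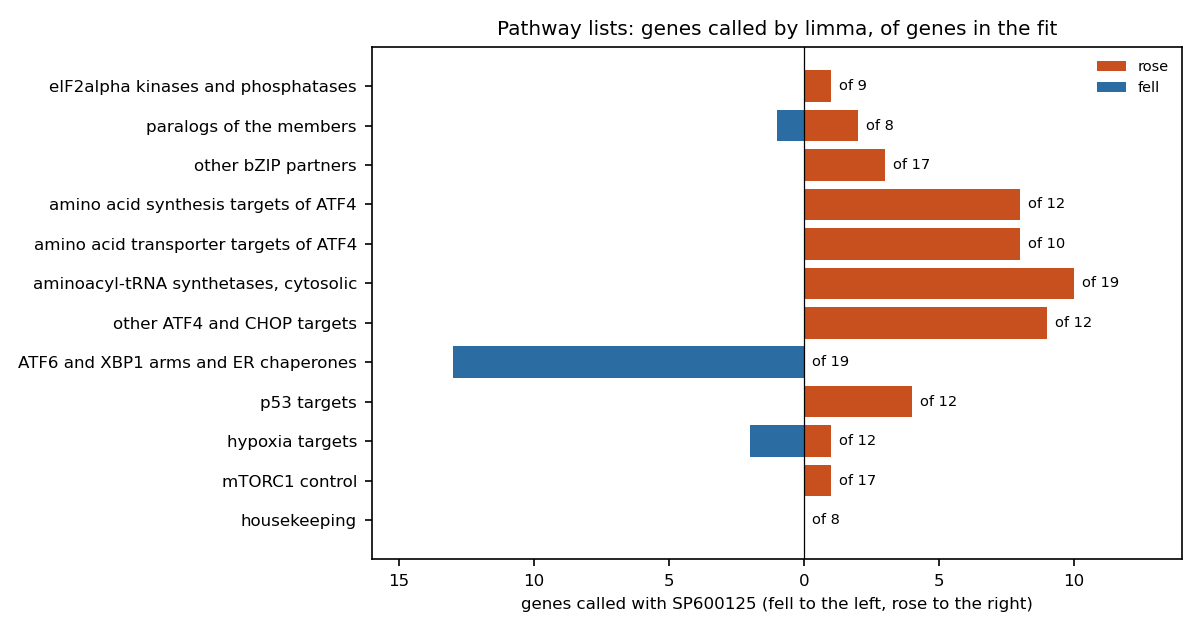
Number of genes of each list that limma called as risen (to the right) or fallen (to the left) with SP600125, and the number in the fit. The lists of ATF4 targets have 8, 8, 10 and 9 risen genes, and the ER chaperone list has 13 fallen ones.

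With TGF-β at 12 h, where 1.99% of all genes rose and 1.83% fell, 2 of 8 paralogs, 1 of 17 other leucine zipper genes and 1 of 12 p53 targets rose. At that time 2 of 10 amino acid transporters, 1 of 12 amino acid synthesis genes, 1 of 12 other ATF4 and CHOP targets and 1 of 12 hypoxia targets fell, and limma called no other gene of the 12 lists. At 24 h, where 7.84% of all genes rose and 6.79% fell, 4 of 8 paralogs, 5 of 12 p53 targets, 3 of 12 other ATF4 and CHOP targets and 2 of 9 eIF2α kinase and phosphatase genes rose, and 0 of these fell. Of the other leucine zipper genes 4 of 17 rose and 1 fell. In the amino acid lists 6 of 19 aminoacyl-tRNA synthetases, 3 of 12 synthesis genes and 2 of 10 transporters fell, and 0 rose. The ER chaperone and mTORC1 lists had 1 risen gene each and the hypoxia and housekeeping lists 1 fallen gene each.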

How the data were processed

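The authors deposited 1 linear intensity (signal) for each probe set and array, and the submitters' processing notes name GCOS 1.2, with settings not given in the sources used here. The deposited intensity values had a 2% trimmed mean of 500.0 on every array. Array medians were 69.3 to 80.9. Of 45101 probe sets 34958 had 1 symbol, 932 several and 9211 none, and 34754 of the probe sets with 1 symbol were matched to the RefSeq gene table. A gene was read by its brightest probe set. Signals under the 50th percentile, 74.2, were set to it. limma 3.58.1 in R 4.3.3 was fitted to the 24946 non-control probe sets above the floor on at least 2 arrays (2 residual degrees of freedom, prior with intensity trend 6.47 for the additive model and 2.38 for the interaction). Benjamini-Hochberg adjustment ran over all probe sets, with calls at 0.05, and background shares are over genes. On simulated data for the SP600125 effect, run on 24946 probe sets, it recovered 83% of log2 changes of 1 and 100% of those of 2, with 13 false calls. The simulated data were additive with independent normal errors of the fitted size. They therefore do not show how the fit does where the real arrays depart from that model. "Rose" and "fell" mean limma calls, and "higher" and "lower" single pairs. The error of the additive model is departure from additivity. Single pairs have no test. The number of arrays limits the precision. Of 170 genes in 12 pathway lists, 159 were found by symbol or older name. The named genes are the 10, the up to 2 risen and 2 fallen genes of each list with the largest drug effect, and the 5 nearest Atf4. Genes and lists were chosen with earlier results of these data known. Groups came from the titles. Alternatives were scaling, floor, filter, unit of the fit and leaving out each array.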

Additional observations from a re-analysis of the deposited data

How the results depend on the processing

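The labels give no replicate numbers to pair by, and the additive model pairs drug with no drug by TGF-β state. For the SP600125 effect limma called 8 of the 10 genes, and 6 to 9 under both scalings, both other floors, the fit on brightest probe sets and averaged probe sets. Without a filter on dim probe sets it called 0 of the 10 and 0 of all genes at a prior of 0.654 degrees of freedom, with 7 and 2351 at an unadjusted p under 0.05. Of all genes 746 were called, and 175 with averaged probe sets. Leaving out 1 array, which leaves 1 residual degree of freedom, gave 0 to 1 of the 10 and 0 to 4 of all genes. The drug effect then rests on the complete pairs that remain, and each of the 9 fitted genes was higher with drug in every pair. Their direction therefore could not change, and Atf3 was held at the floor without drug.

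At 12 h of TGF-β the count of 1 became 2 with the floor at the 25th percentile, with an offset of 50 or on brightest probe sets, and 0 without a filter or with averaged probe sets (3 and 3 of the 10 at an unadjusted p under 0.05). Over all genes the 449 calls became 726 with the offset, 3 without a filter and 92 with averaged probe sets. At 24 h the count of 2 became 1 after median scaling, and 0 without a filter or with averaging (1 and 3 unadjusted), and the 1716 calls of all genes became 3 and 964. Leaving out 1 array gave 0 of the 10 at both times, 0 of all genes at 12 h (1342 to 2352 unadjusted) and 0 to 118 at 24 h. The interaction called 0 of the 10 and 0 of all genes, with 411 of all genes without a filter. It called 0 when any 1 TGF-β array was left out, with 0 to 3 of the 10 at an unadjusted p under 0.05, and it cannot be fitted without an unstimulated array. By the 2-fold rule 7 of the 10 were higher with drug in all 3 pairs, and 5 to 8 under the alternatives. The 2 TGF-β inducible genes became 1 with averaged probe sets and 4 at 1.5-fold.

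Among values that were not called, 24 h of TGF-β changed sign for Atf4 to 0.059 with averaged probe sets and for Atf5 to −0.035 after median scaling. The interaction changed sign for Atf4 to 0.01 and Ddit3 to 0.61 with averaging, and for Atf5 to 0.058 after quantile normalization. Leaving out 1 array gave ranges that cross 0 at 12 h for Atf3 (−0.90 to 0.16), Ddit3 (−0.03 to 0.50), Trib3 (−0.56 to 0.30), Chac1 (−0.43 to 0.34) and Sesn2 (−0.15 to 1.44), and at 24 h for Atf3 (−0.19 to 0.82), Atf5 (−0.044 to 0.24), Cebpb (−0.42 to 0.0076) and Chac1 (−0.12 to 0.81). For the interaction they did so for Atf3 (−0.74 to 0.63), Atf5 (−0.49 to 0.40), Ddit3 (−0.63 to 0.35) and Cebpb (−0.06 to 0.72). The cause of these changes was not tested. Median scaling moved the median of all probe sets from 0.0308 to −0.0365 for the drug effect, and from 0.044 to −0.0623 at 24 h of TGF-β.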
